A study of Homo sapiens with 4 samples.

Results

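Enzymes that make and use arginine and proline were followed in a pair of human epithelial cancer cell lines, each cultured for 7 days in a conventional or a plasma-like medium. The genes were chosen by symbol, 9 of 58051 gene identifiers: ASS1 and ASL, which make arginine, ARG2 and NOS2, which consume it, OAT, which links ornithine to proline, ALDH18A1 and PYCR1, which make proline, and PRODH and ALDH4A1, which break it down. H441 cells derive from a lung adenocarcinoma and HT29 cells from a colorectal one, and both are labelled wild type. Each was grown in RPMI-1640 or in HPLM, a medium composed to hold metabolites near their levels in human plasma, with 10% fetal bovine serum and 1% penicillin and streptomycin in either medium. Poly(A) RNA was sequenced, with 3 libraries for each of the 4 combinations of line and medium, 12 in all. Whether each library is its own culture is not said in the labels, and the p-values therefore reflect spread among libraries that may be technical.

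Arginine is made in the cytosol from citrulline and aspartate by argininosuccinate synthase (ASS1) and argininosuccinate lyase (ASL). Mitochondrial arginase (ARG2) splits it into ornithine and urea, and the inducible nitric oxide synthase (NOS2) turns it into nitric oxide and citrulline. Ornithine aminotransferase (OAT) exchanges ornithine and pyrroline-5-carboxylate, the intermediate that ALDH18A1 also makes from glutamate and that PYCR1 reduces to proline, while PRODH and ALDH4A1 carry proline back to glutamate. RPMI-1640 is rich in arginine, whereas HPLM holds it near the plasma level and also supplies citrulline and ornithine.

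In H441, HPLM raised ARG2 and PYCR1 and lowered OAT and ALDH18A1 by smaller amounts. In HT29 the estimates for ARG2 and PYCR1 had the opposite sign, and the difference between the lines passed its own test for both. Without RPMI-1640 library 1, which stood apart, HT29 had lower ASS1, ARG2, OAT, ALDH18A1 and PYCR1 in HPLM and higher ALDH4A1, and with all its libraries only ALDH18A1 passed the test. Of the 9 genes, 7 could be tested in both lines; PRODH and NOS2 did not reach a TPM (the length-normalised share of transcripts) of 1 in any library. In H441, 3 of the 7 rose and 2 fell, where 33.7% of all 16458 genes tested rose and 11.3% fell. That split, 5546 against 1858 genes, was 3208 against 4171 after median centring. In HT29, 0 rose and 1 fell with all libraries, where 2.53% of 16352 genes rose and 3.58% fell. Without library 1, 1 rose and 5 fell, where 17.8% of 17273 genes rose and 21.4% fell. Median log2 changes of the 7 genes and of all genes tested were 0.09 and 0.14 in H441, -0.50 and -0.07 in HT29, and -0.59 and -7.86e-05 in HT29 without library 1. Changes are differences of log2(TPM + 1), HPLM over RPMI-1640, with their standard errors. They were tested with limma in each line alone, with Benjamini-Hochberg adjustment over all genes tested and a threshold of 0.05.

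Recovered reads numbered 14.2 to 30.6 M per library, and HT29 RPMI-1640 library 1 had the fewest. Compared with libraries 2 and 3 its reads gave a chi-square, divided by its degrees of freedom, of 178 and 227, against 1.81 to 13.8 for all other pairs of libraries of a group. Mitochondrially encoded genes took 24.1% to 28.8% of TPM in the H441 libraries of RPMI-1640 and 17.5% to 21.7% in those of HPLM. For HT29 they took 19.3% of RPMI-1640 library 1, 28.8% and 30.2% of libraries 3 and 2, and 29.6% to 38.7% of the HPLM libraries. TPM is a share of the whole, and the median change of all genes in H441 moved from 0.14 to 0.00 after trimmed mean scaling. Values after that scaling are therefore given beside small changes. The 4 lung markers (NKX2-1, SFTPA1, SFTPB and NAPSA) summed to 1802 to 1849 TPM in the H441 libraries of RPMI-1640 and 778 to 840 TPM in those of HPLM, and to 1.96 to 5.40 TPM in HT29. The 5 colon markers (KRT20, CDX2, VIL1, CDH17 and LGALS4) summed to 1884 to 2114 TPM in the HT29 libraries of RPMI-1640 and 1318 to 1518 TPM in those of HPLM, and to 3.57 to 5.84 TPM in H441. Both line markers were thus lower in HPLM without overlap. Epithelial markers (EPCAM, KRT8 and KRT18) summed to 3048 to 3160 TPM in RPMI-1640 and 3507 to 3779 TPM in HPLM for H441, and to 4633 to 8204 TPM and 5454 to 6157 TPM for HT29. Leukocyte markers (PTPRC, CD3D, CD68, CD14 and CSF1R) summed to 13.5 to 17.1 TPM in RPMI-1640 and 18.2 to 21.7 in HPLM in H441, and to 22.4 to 48.9 and 11.8 to 17.7 TPM in HT29. Fibroblast markers (COL1A1, COL1A2, DCN, LUM and PDGFRB) summed to 59.8 to 64.2 TPM in RPMI-1640 and 71.8 to 77.4 TPM in HPLM for H441, and to 1.78 to 2.29 TPM and 0.665 to 0.773 TPM for HT29, with 3 of 5 below 1 TPM in each line. Endothelial markers (PECAM1, VWF, CDH5 and KDR) summed to 19.6 to 21.9 TPM in H441 and 0.144 to 1.32 TPM in HT29, with 3 of 4 below 1 TPM in each line. The part of these markers in the results was not tested.

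ASS1 (ENSG00000130707, chromosome 9, 130444929 to 130501274, plus strand, GRCh38) was low in H441 and high in HT29. In H441 its level in libraries 1 to 3 was 9.94, 12.2 and 11.6 TPM in RPMI-1640 and 9.76, 9.55 and 11.1 TPM in HPLM. These groups overlap. The change of -0.13 ± 0.09 did not pass the test (adjusted p = 0.298), while after trimmed mean scaling it was -0.28 (adjusted p = 0.0444), after median centring -0.31 (adjusted p = 0.0286) and by edgeR on recovered reads -0.29 (adjusted p = 0.0179). In HT29 ASS1 stood at 41.2, 249.98 and 258 TPM in RPMI-1640 and at 90.2, 83.6 and 77.3 TPM in HPLM. RPMI-1640 library 1 lay below all HPLM libraries and the other two lay above them all. The change was -0.73 ± 0.69 with all libraries (adjusted p = 0.574) and -1.59 ± 0.11 without library 1 (adjusted p = 5.27e-04). The behaviour of library 1 at ASS1 rests on 515 reads, against 5840 and 8424 in libraries 2 and 3.

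ASS1 has processed pseudogenes, to which its reads could be assigned in part. Of 20 identifiers of pseudogenes of the 9 genes, 2 reached 1 TPM in some library. ASS1P12 lay between 1.30 and 2.35 TPM in H441 and at most at 0.429 TPM in HT29, and ASLP1 reached 1.43 TPM in H441 and 1.64 in HT29. How far the values of ASS1 are affected was not tested, and the levels of the pseudogenes do not set a limit to it.

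ASL (ENSG00000126522, chromosome 7, 66075798 to 66093558, plus strand), the next enzyme of the route, moved little with the medium. In H441 it stood at 28.7, 30.5 and 29.3 TPM in RPMI-1640 and 32.3, 33.3 and 33.5 TPM in HPLM, and these groups do not overlap. The change of 0.16 ± 0.05 passed the test (adjusted p = 0.0401), but it was close to the median of all genes, and after trimmed mean scaling it was 0.00 (adjusted p = 0.971). The call was also lost on leaving out any of the 6 libraries (adjusted p = 0.0595 to 0.145). In HT29 RPMI-1640 library 1 held 42.4 TPM and libraries 2 and 3 held 14.996 and 15.6 TPM, against 20.6, 18.2 and 16.0 TPM in HPLM. Library 1 was thus the highest and the other two the lowest of the 6. The change was -0.23 ± 0.40 (adjusted p = 0.766) and, without library 1, 0.24 ± 0.13 (adjusted p = 0.194). Without it ASL passed after trimmed mean scaling (0.26, adjusted p = 0.0419) and by edgeR (0.27, adjusted p = 0.0153). Of the exon bases of ASL, 17.6% lie in the readthrough locus AC068533.4 on the same strand, which reached 1.57 TPM at most.

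ARG2 (ENSG00000081181, chromosome 14, 67619798 to 67651720, plus strand) had the largest difference between lines among these genes. In H441 it stood at 7.20, 5.15 and 5.61 TPM in RPMI-1640 and at 35.2, 33.8 and 35.4 TPM in HPLM. Every HPLM library lay far above every RPMI-1640 library. The rise of 2.37 ± 0.11 (adjusted p = 1.71e-04) kept its call under 9 other settings and without any of the 6 libraries, with values from 2.19 to 2.53. In HT29 the levels were 4.04, 10.7 and 12.1 TPM in RPMI-1640 and 4.14, 3.65 and 3.05 TPM in HPLM. RPMI-1640 library 1, with 40 reads, lay among the HPLM libraries, while libraries 2 and 3 lay above them. The change was -0.998 ± 0.374 (adjusted p = 0.166) and -1.43 ± 0.14 without library 1 (adjusted p = 0.00116). In the authors' deposited table the log2 change of ARG2 was 2.36 in H441 and -1.28 in HT29, the latter with an adjusted p of 0.0388.

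VTI1B, a gene of vesicle fusion on the opposite strand, shares 904 bases with the exons of ARG2, 37.4% of them. Strand is not recorded by the library kit, and reads from the shared stretch cannot be told apart. VTI1B stood at 50.9 ± 0.71 TPM (SD, n = 3) in RPMI-1640 and 54.1 ± 1.17 TPM in HPLM in H441, and at 27.3 ± 5.38 and 27.1 ± 2.26 TPM in HT29, so its level moved far less than that of ARG2.

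The promoter windows of RefSeq (GRCh38.p14, 250 bases before to 50 after the gene start) were read for 6 of the 9 genes. PYCR1, PRODH and NOS2 had no entry. Distances are counted from the start that defines each window, which is not always the GENCODE start given with the gene. The GENCODE start of ARG2 (67619798) lies within its window, and that of ASS1 (130444929) lies past the end of its window. The windows of ARG2, ASS1 and ALDH18A1 are shown because these genes gave the largest changes, in plus strand for ARG2 (chr14:67619670-67619969) and ASS1 (chr9:130444457-130444756) and minus strand for ALDH18A1 (chr10:95656662-95656961), each 5′ to 3′. Capitals mark matches, on either strand, to the cAMP response element TGACGTCA, the E-box CACGTG, the GC box GGGCGG and the element of ATF4 and C/EBP factors TGATGNAA.
ARG2: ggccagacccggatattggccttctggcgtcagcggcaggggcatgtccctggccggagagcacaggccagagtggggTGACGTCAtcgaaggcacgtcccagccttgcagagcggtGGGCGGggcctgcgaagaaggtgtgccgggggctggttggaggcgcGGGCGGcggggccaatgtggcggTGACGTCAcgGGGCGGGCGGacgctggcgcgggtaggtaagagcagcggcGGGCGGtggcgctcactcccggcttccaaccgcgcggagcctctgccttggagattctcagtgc
ASS1: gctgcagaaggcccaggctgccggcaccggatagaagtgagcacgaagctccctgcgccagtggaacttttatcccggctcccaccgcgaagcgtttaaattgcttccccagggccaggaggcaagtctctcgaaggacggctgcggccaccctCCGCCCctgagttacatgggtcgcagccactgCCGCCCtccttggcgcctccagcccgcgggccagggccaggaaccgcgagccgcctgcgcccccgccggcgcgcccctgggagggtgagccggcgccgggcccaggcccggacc
ALDH18A1: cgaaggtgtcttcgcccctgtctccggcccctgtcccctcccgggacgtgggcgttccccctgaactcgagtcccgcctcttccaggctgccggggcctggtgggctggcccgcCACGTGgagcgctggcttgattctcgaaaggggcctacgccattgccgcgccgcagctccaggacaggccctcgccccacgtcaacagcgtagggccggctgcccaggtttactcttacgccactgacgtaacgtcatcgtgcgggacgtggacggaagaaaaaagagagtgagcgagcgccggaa
The ARG2 window held TGACGTCA at 172 and 64 bases before the start, a sequence found in 1.85% of 35116 promoter windows of the same length, and 5 matches to GGGCGG, found in 45.0% of them, of which a pair overlap. ALDH18A1 held CACGTG at 136 bases before its start (7.26% of windows). ASS1 held only GC boxes, at 96 and 64 bases before its start. TGATGNAA (3.62% of windows) was in none of the 6 windows. The motifs were chosen with the results known, and a match describes the letters only.

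NOS2 (ENSG00000007171, chromosome 17, 27756766 to 27800499, minus strand) was listed at 0 TPM in all 12 libraries. No fold or test can be given for it.

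OAT (ENSG00000065154, chromosome 10, 124397303 to 124418976, minus strand) was lower in HPLM in both lines. In H441 it stood at 288, 285 and 279 TPM in RPMI-1640 and 252, 233 and 250 TPM in HPLM, and the groups do not overlap. The fall of -0.21 ± 0.05 (adjusted p = 0.0205) was -0.37 after trimmed mean scaling, and its call was lost without RPMI-1640 library 1 (adjusted p = 0.0829), RPMI-1640 library 2 (adjusted p = 0.0647) or HPLM library 3 (adjusted p = 0.054). In HT29 its level was 66.6, 57.6 and 50.5 TPM in RPMI-1640 and 41.2, 43.1 and 37.8 TPM in HPLM. Here library 1 lay on the same side as the other RPMI-1640 libraries and the groups do not overlap. The change was -0.50 ± 0.16 (adjusted p = 0.126) and -0.40 ± 0.12 without library 1 (adjusted p = 0.0387). That call was lost when mitochondrially encoded genes were left out of TPM (-0.31, adjusted p = 0.059) and with a pseudocount of 0.1 (-0.41, adjusted p = 0.0533). With all HT29 libraries, OAT passed under 1 of 9 other settings, DESeq2 on recovered reads (-0.43, adjusted p = 0.0030). The authors' deposited table gave the same rounded values.

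ALDH18A1 (ENSG00000059573, chromosome 10, 95605929 to 95656706, minus strand), whose product makes pyrroline-5-carboxylate from glutamate, was lower in HPLM in both lines. The estimate was larger in HT29, and the test of that difference, given below, lost its call under 4 of 10 other settings. In H441 it stood at 106, 111 and 103 TPM in RPMI-1640 and at 91.4, 88.0 and 92.3 TPM in HPLM, without overlap. The change was -0.24 ± 0.05 (adjusted p = 0.0144) and -0.39 after trimmed mean scaling, and its call was lost without RPMI-1640 library 1 (adjusted p = 0.0541). In HT29 it stood at 195, 238 and 225 TPM in RPMI-1640 and at 120, 114 and 98.5 TPM in HPLM. All RPMI-1640 libraries, library 1 included, lay above all HPLM libraries. The change was -0.98 ± 0.16 (adjusted p = 0.0266) and -1.06 ± 0.12 without library 1 (adjusted p = 0.00199). Leaving out any of the other 5 libraries gave changes of -1.04 to -0.89 and ended the call (adjusted p = 0.0885 to 0.153). With a replicate block the call was lost in H441 (adjusted p = 0.0722) and in HT29 with all libraries (adjusted p = 0.105).

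PYCR1 (ENSG00000183010, chromosome 17, 81932384 to 81942412, minus strand), the mitochondrial reductase that completes proline synthesis, moved in opposite directions. In H441 it stood at 224, 227 and 217 TPM in RPMI-1640 and at 306, 305 and 340 TPM in HPLM. The groups do not overlap, and the rise of 0.50 ± 0.06 (adjusted p = 0.00195) was 0.34 after trimmed mean scaling. In HT29 the levels were 104, 158 and 136 TPM in RPMI-1640 and 108, 102 and 82.4 TPM in HPLM. RPMI-1640 library 1 lay within the HPLM range and libraries 2 and 3 above it. The change was -0.43 ± 0.21 (adjusted p = 0.268) and -0.59 ± 0.15 without library 1 (adjusted p = 0.0259). Of the exon bases of PYCR1, 15.6% lie in AC145207.4 on the opposite strand, listed at 0 TPM. A further overlap of 14.1% is with MYADML2 on the same strand, at most at 0.42 TPM. The effect of these overlaps on the level of PYCR1 was not tested.

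PRODH (ENSG00000100033, chromosome 22, 18912777 to 18936553, minus strand), the first enzyme of proline breakdown, was barely detected. It was listed at 0.281, 0.253 and 0.106 TPM in RPMI-1640 and 0.0942, 0.0692 and 0.0624 TPM in HPLM in H441, and at no more than 0.015 TPM in HT29. These levels were below the filter and were not tested. ALDH4A1 (ENSG00000159423, chromosome 1, 18871430 to 18902781, minus strand), which takes pyrroline-5-carboxylate on to glutamate, stood between 7.15 and 13.6 TPM in every library. In H441 it lay at 9.87, 10.0 and 9.70 TPM in RPMI-1640 and at 9.19, 11.3 and 11.2 TPM in HPLM, and the groups overlap. The change was 0.09 ± 0.09 (adjusted p = 0.454), and -0.06 after trimmed mean scaling. In HT29 it lay at 13.4, 7.15 and 7.69 TPM in RPMI-1640 and at 13.6, 11.2 and 10.0 TPM in HPLM. Library 1 was again on the HPLM side, and libraries 2 and 3 were the lowest. The change was 0.31 ± 0.26 (adjusted p = 0.513) and 0.57 ± 0.15 without library 1 (adjusted p = 0.0252). Of the exon bases of ALDH4A1, 41.1% lie in AL080251.1 on the same strand, which reached 0.0347 TPM at most. The effect of that overlap on the level of ALDH4A1 was not tested.

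**Figure D1:**
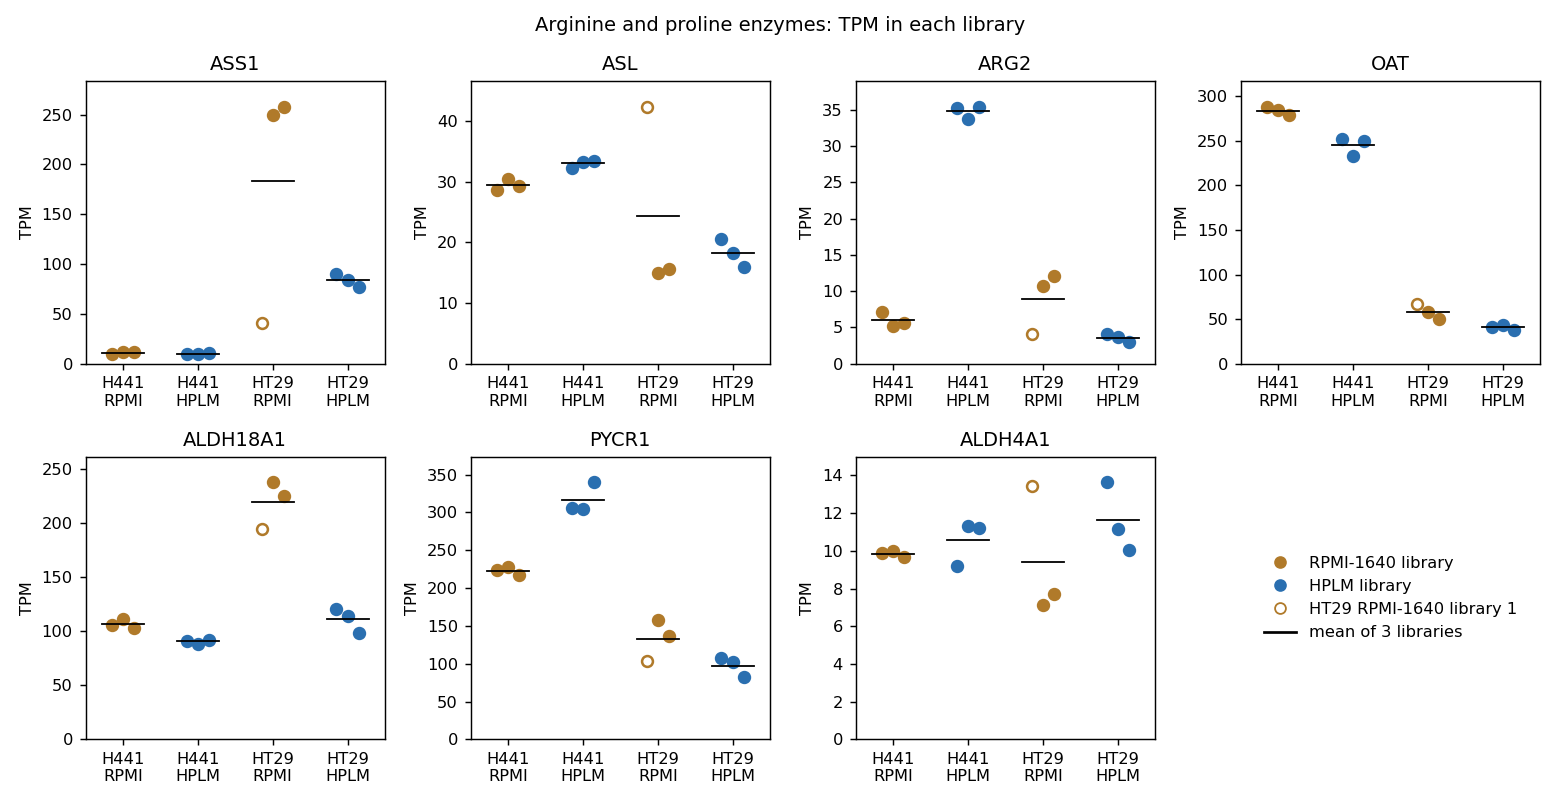
TPM (linear axis from 0, each panel with its own range) of the 7 testable genes in each of the 12 libraries, by line and medium; points are libraries, lines are means of 3 and the open point is HT29 RPMI-1640 library 1. ARG2 is at 33.8 TPM or above in every H441 HPLM library and at 12.1 TPM or below elsewhere, and the open point leaves its group at ASS1, ASL, ARG2, PYCR1 and ALDH4A1.

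**Figure D2:**
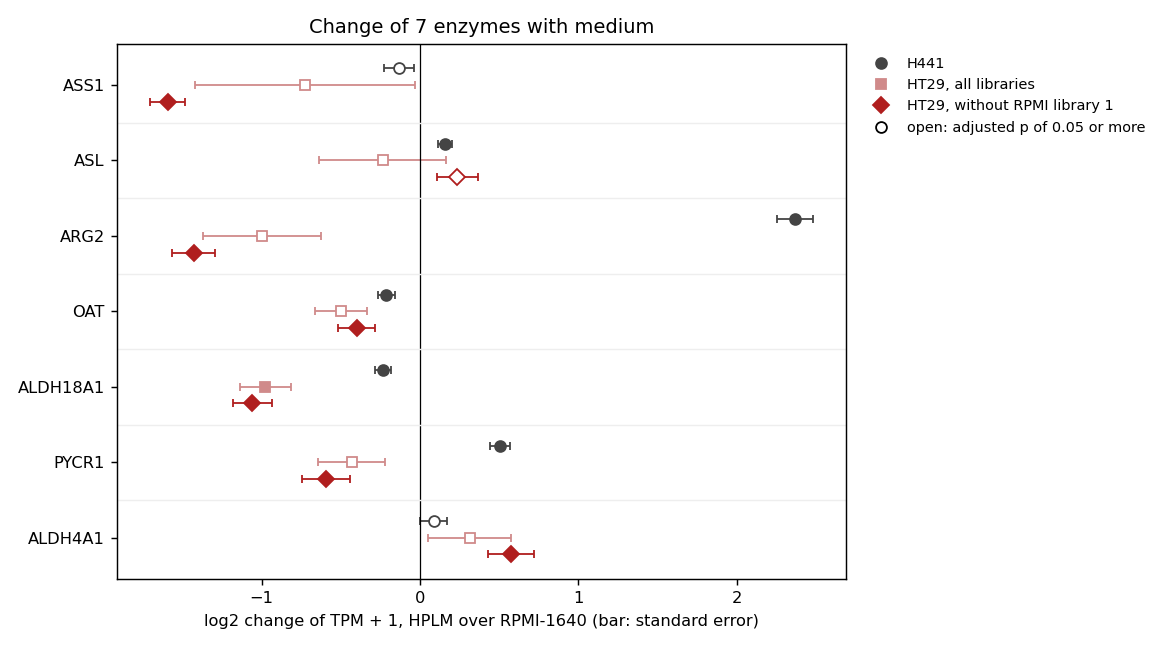
Change of the same 7 genes with medium, as the log2 change of TPM + 1 (HPLM over RPMI-1640) with its standard error, in H441, in HT29 with all libraries and in HT29 without RPMI-1640 library 1; filled points passed an adjusted p of 0.05. ARG2 and PYCR1 lie right of 0 in H441 and left of it in HT29, and the bars of HT29 shrink without library 1.

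The difference between the lines' responses was tested as an interaction over all 12 libraries, HT29 minus H441, with 1 variance per gene for all groups, of which HT29 in RPMI-1640 spread most. Of the 7 genes, 3 had a more negative response in HT29, where 11.4% of 19212 genes did, and 0 a more positive response, where 3.00% did. For ARG2 the difference was -3.37 ± 0.42 (adjusted p = 9.94e-04), and it kept its call under every alternative tried. For PYCR1 it was -0.94 ± 0.22 (adjusted p = 0.0186) and for ALDH18A1 -0.74 ± 0.15 (adjusted p = 0.0109). Each of these 2 calls was lost under 4 of 10 other settings. Trimmed mean scaling gave -0.70 and -0.50 (adjusted p = 0.104 and 0.0915), and edgeR on recovered reads gave adjusted p = 0.0692 and 0.0762. Adjusted p was 0.129 and 0.122 without mitochondrially encoded genes, and 0.0670 and 0.0588 with a replicate block. The call of PYCR1 was also lost without H441 RPMI-1640 library 3, H441 HPLM library 3 or HT29 HPLM library 3 (adjusted p = 0.051 to 0.0563). Without HT29 RPMI-1640 library 1, 4 of the 7 had a more negative response in HT29, where 25.0% of 20296 genes did, and 0 a more positive one, where 9.37% did. They were ARG2 (-3.80 ± 0.18, adjusted p = 2.50e-06), ASS1 (-1.46 ± 0.14, adjusted p = 8.25e-05), PYCR1 (-1.10 ± 0.16, adjusted p = 8.20e-04) and ALDH18A1 (-0.82 ± 0.12, adjusted p = 8.10e-04). For ASS1 the difference with all libraries was -0.59 ± 0.78 (adjusted p = 0.671). OAT (-0.29 ± 0.16, adjusted p = 0.264) and ASL (-0.39 ± 0.44, adjusted p = 0.611) did not pass with all libraries.

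Ratios of TPM within a library do not depend on the scaling between libraries. ASS1 over ASL, successive steps of arginine synthesis, was 0.379 ± 0.029 (SD, n = 3) for H441 grown with RPMI-1640 and 0.306 ± 0.022 with HPLM. For HT29 it was 0.972, 16.7 and 16.6 in RPMI-1640 libraries 1 to 3 and 4.60 ± 0.22 in HPLM. At this ratio library 1 was thus nearer to H441 than to its own group. At PYCR1 over ALDH18A1 (0.534) it lay with HT29, and at ARG2 over OAT (0.0606) between H441 in RPMI-1640 and the other HT29 libraries. Its colon markers summed within the 1884 to 2114 TPM of HT29 in RPMI-1640. ARG2 over OAT, the enzymes that release and consume ornithine, averaged 0.0211 ± 0.0035 for H441 grown with RPMI-1640 and 0.142 ± 0.0025 with HPLM. For HT29 it was 0.0606, 0.185 and 0.239 in RPMI-1640 and 0.0886 ± 0.010 in HPLM. PYCR1 over ALDH18A1, the last and first steps from glutamate to proline, was higher in HPLM in every library of both lines: 2.09 ± 0.041 against 3.499 ± 0.170 in H441, and 0.601 ± 0.065 against 0.876 ± 0.034 in HT29. In HT29 library 1, at 0.534, lay on the same side as the other RPMI-1640 libraries. These ratios were not tested.

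**Figure D3:**
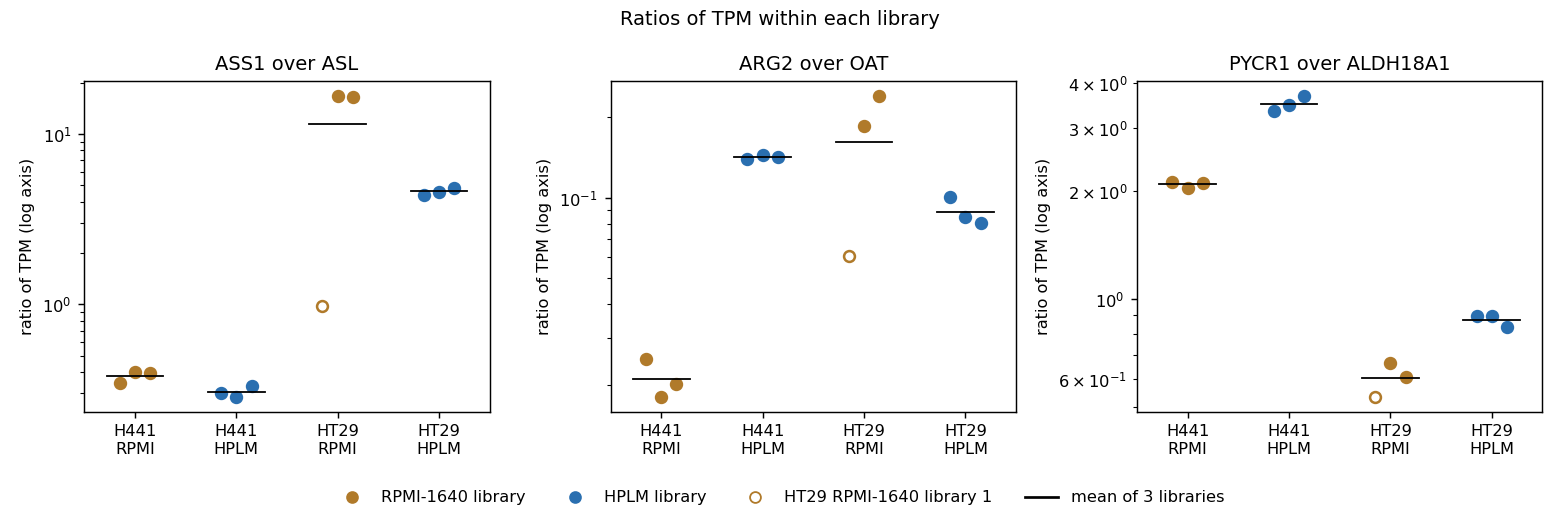
Ratios of TPM within each library (log axes) for ASS1 over ASL, ARG2 over OAT and PYCR1 over ALDH18A1, by line and medium, with libraries as points, means of 3 as lines and HT29 RPMI-1640 library 1 as the open point. PYCR1 over ALDH18A1 is higher in HPLM than in RPMI-1640 in both lines, while ARG2 over OAT moves up in H441 and, without the open point, down in HT29.

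The order of the genes by TPM, a value per length of transcript, differed between the lines. In H441 in RPMI-1640 it was OAT, PYCR1, ALDH18A1, ASL, ASS1, ALDH4A1, ARG2, PRODH and NOS2, and only ASS1 and ALDH4A1 were neighbours whose libraries overlap. In HPLM, PYCR1 (317 ± 19.8 TPM) stood above OAT (245 ± 10.3 TPM), and ARG2 (34.8 ± 0.91 TPM) had moved from below ALDH4A1 to above ASL (33.1 ± 0.63 TPM). In HT29 in RPMI-1640 with all libraries it was ALDH18A1 (219 TPM), ASS1 (183 TPM), PYCR1 (133 TPM), OAT, ASL, ALDH4A1 and ARG2, and overlaps joined ALDH18A1 to ASS1, ASS1 to PYCR1 and ALDH4A1 to ARG2. Without library 1 the order was ASS1, ALDH18A1, PYCR1, OAT, ASL, ARG2 and ALDH4A1, with no overlap between neighbours. In HT29 in HPLM it was ALDH18A1 (111 ± 11.2 TPM), PYCR1 (97.4 ± 13.3 TPM) and ASS1 (83.7 ± 6.48 TPM), each overlapping the next, then OAT, ASL, ALDH4A1 and ARG2. The tables of the lines were deposited separately, so levels across lines are described and were not tested. OAT was higher in every H441 library (233 TPM or more) than in any HT29 library (66.6 TPM or less), and ASS1 higher in every HT29 library (41.2 TPM or more) than in any H441 library (12.2 TPM or less).

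Patterns most like those of the 7 genes were sought by Pearson correlation of log2(TPM + 1) after subtracting each line's mean. The correlations ran over 11 libraries without HT29 RPMI-1640 library 1 and were computed with 14106 other genes. Genes without a symbol, or with symbols of clones, antisense transcripts or numbered open reading frames, were then left out of the ranking. The points share library, depth and the same contrast of media, so high values are common. Near to ARG2 was SYVN1 (r = 0.994), and nearest to ASS1 were ADGRL1 (r = 0.996) and ALDOC (r = 0.994), and to ALDH18A1 IDI1 and TOP2A (both r = 0.996). OAT was followed by BAK1 (r = 0.991) and TMEM56 (r = 0.990), PYCR1 by PHLDA1 (r = 0.989) and P4HB (r = 0.988), ASL by WDR54 (r = 0.968) and VTI1B (r = 0.964), and ALDH4A1 by IFT22 (r = 0.981) and VMAC (r = 0.979). Over all 12 libraries the same pairs gave r = 0.311 to 0.985, lowest for VMAC.

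Other genes of arginine and proline metabolism were taken from 4 lists with 48 genes. In H441, 35 were tested, of which 17 rose and 2 fell; in HT29, 37 were tested, of which 0 rose and 2 fell with all libraries, and 12 rose and 10 fell without RPMI-1640 library 1. The shares of all genes that rose and fell were 33.7% and 11.3% in H441, 2.53% and 3.58% in HT29, and 17.8% and 21.4% without library 1. Transport genes rose in 6 of 11 cases in H441 and fell in 0 (median log2 change 0.21, against 0.14 for all genes). In HT29 with all libraries, 0 of 13 rose and 0 fell (median -0.09, against -0.07). Without library 1, 6 of the 13 rose and 3 fell (median 0.13, against -7.86e-05). SLC7A1, the main cationic amino acid transporter for arginine, stood at 68.3, 72.6 and 60.1 TPM in RPMI-1640 and 136, 128 and 137 TPM in HPLM in H441. Its rise of 0.99 ± 0.08 (adjusted p = 6.57e-04) kept its call in every alternative. In HT29 it stood at 103, 115 and 112 TPM in RPMI-1640 and 103, 99.0 and 84.1 TPM in HPLM, where groups overlap only through library 1. Its change there did not pass, at -0.20 ± 0.15 with all libraries (adjusted p = 0.464) and -0.25 ± 0.12 without library 1 (adjusted p = 0.156). The response of SLC7A1 differed between the lines by -1.20 ± 0.16 (adjusted p = 0.00117). SLC3A2, the heavy chain of several amino acid exchangers, rose by 0.96 ± 0.06 in H441 and SLC38A2, which carries small neutral amino acids and proline, by 0.82 ± 0.05 (adjusted p at most 3.45e-04). For SLC3A2 in HT29 the change was 0.13 ± 0.37 with all libraries (adjusted p = 0.862). It was -0.30 ± 0.11 without library 1 (adjusted p = 0.0672). In HT29 SLC38A2 stood at 104, 261 and 227 TPM in RPMI-1640 and 159.9, 155 and 139 TPM in HPLM, with library 1 the lowest of the 6. Its change was -0.28 ± 0.35 with all libraries (adjusted p = 0.677) and -0.69 ± 0.12 without library 1 (adjusted p = 0.00743). SLC6A20, a proline transporter, was near 0 in H441. In HT29 it stood at 5.21, 2.16 and 2.01 TPM in RPMI-1640 and 7.82, 7.42 and 6.48 TPM in HPLM, without overlap. Its change was 1.08 ± 0.30 (adjusted p = 0.0894) and 1.41 ± 0.12 without library 1 (adjusted p = 7.20e-04).

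Genes of the urea cycle and of arginine use numbered 7 tested of 13 in each line, with 3 risen and 1 fallen in H441, 0 and 0 in HT29, and 1 risen and 4 fallen in HT29 without library 1. The H441 counts are near the shares over all genes (33.7% risen and 11.3% fallen). Over all genes 2.53% rose and 3.58% fell in HT29, and 17.8% and 21.4% without library 1. ODC1, which takes ornithine into polyamines, stood at 174, 179 and 156 TPM in RPMI-1640 and 358, 343 and 351 TPM in HPLM in H441, a rise of 1.05 ± 0.07 (adjusted p = 3.33e-04). In HT29 it stood at 537, 136 and 134 TPM in RPMI-1640 and 277, 265 and 223 TPM in HPLM. Library 1 was the highest and libraries 2 and 3 were the lowest, and the change of ODC1 was 0.24 ± 0.54 with all libraries (adjusted p = 0.822) and 0.91 ± 0.13 without library 1 (adjusted p = 0.00365). NOS3, the endothelial nitric oxide synthase, stood at 2.58, 4.78 and 5.03 TPM in RPMI-1640 and 2.14, 1.43 and 1.77 TPM in HPLM in HT29. Those groups do not overlap, and the change was -0.85 ± 0.25 (adjusted p = 0.0943) and -1.09 ± 0.14 without library 1 (adjusted p = 0.00249). DDAH1, which clears methylated arginine, rose by 0.22 ± 0.05 in H441 (adjusted p = 0.0147). Its call was lost under 6 of 9 other settings, trimmed mean scaling among them (adjusted p up to 0.542). It was also lost in 4 of the 6 fits that left out a library. In HT29 the change of DDAH1 was -0.74 ± 0.29 with all libraries (adjusted p = 0.180) and -0.42 ± 0.11 without library 1 (adjusted p = 0.0312).

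On the proline and glutamate side 8 of 11 genes were tested in each line. In H441, 2 rose and 1 fell, and in HT29, 0 rose and 2 fell with all libraries, and 2 rose and 2 fell without library 1. Over all genes 33.7% rose and 11.3% fell in H441 and 17.8% rose and 21.4% fell in HT29 without library 1, so the counts of those fits lie near or below the background, while with all HT29 libraries 3.58% fell. P4HA1 and P4HA2, catalytic subunits of the enzymes that hydroxylate proline in collagen, were the members that fell in HT29. P4HA1 stood at 57.6, 103 and 98.5 TPM in RPMI-1640 and 38.7, 38.2 and 32.2 TPM in HPLM, and P4HA2 at 20.3, 33.9 and 32.7 TPM and at 13.0, 12.9 and 11.7 TPM. All RPMI-1640 libraries lay above all HPLM libraries for both genes. The changes were -1.18 ± 0.25 and -1.11 ± 0.23 (adjusted p = 0.0488 and 0.0423), and -1.45 ± 0.12 and -1.34 ± 0.10 without library 1 (adjusted p = 7.62e-04 and 6.35e-04). Leaving out any of the other 5 libraries ended both calls. With all libraries, each call was also lost under 6 of 9 other settings (adjusted p up to 0.1255 for P4HA1 and 0.1165 for P4HA2). In H441, GLUL, which makes glutamine from glutamate, fell by 0.51 on the log2 scale (SE 0.06, adjusted p = 0.00186). PEPD, which frees proline from dipeptides, changed by 0.41 ± 0.35 in HT29 with all libraries (adjusted p = 0.522) and rose by 0.81 ± 0.13 without library 1 (adjusted p = 0.0063).

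Of 9 regulators listed for these pathways, 6 rose and 0 fell in H441, where 33.7% of all genes rose and 11.3% fell (median 0.75, against 0.14 for all genes). In HT29 0 changed with all libraries, and 3 rose and 1 fell without library 1, where 17.8% of all genes rose and 21.4% fell. DDIT3, a stress factor downstream of ATF4, rose by 3.22 ± 0.05 in H441 (adjusted p = 1.30e-05). In HT29 it stood at 39.7, 220 and 236 TPM in RPMI-1640 and 217, 219 and 202 TPM in HPLM. There library 1 was far below the rest, and the change was 0.73 ± 0.67 with all libraries (adjusted p = 0.555) and -0.10 ± 0.10 without library 1 (adjusted p = 0.464). MYC rose by 1.68 ± 0.05 in H441 and HIF1A, the oxygen-regulated factor, by 0.85 ± 0.05 (adjusted p at most 2.61e-04).

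**Figure D4:**
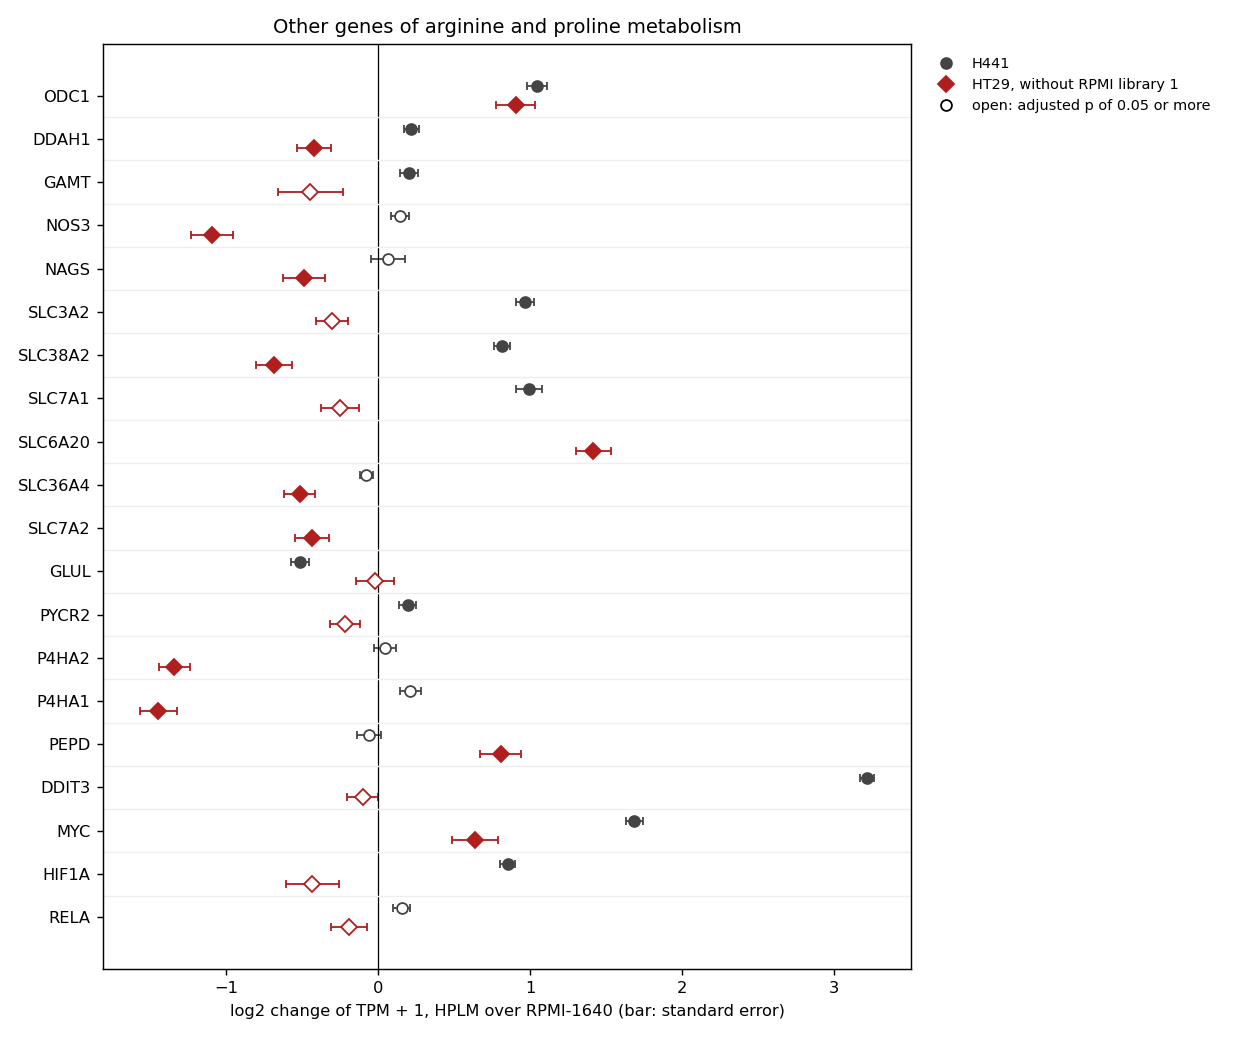
Change with medium, as the log2 change of TPM + 1 (HPLM over RPMI-1640) with its standard error, of 20 other genes of the pathway in H441 and in HT29 without RPMI-1640 library 1; filled points passed an adjusted p of 0.05, and SLC6A20 and SLC7A2 were too low in H441 to be tested. SLC7A1, SLC3A2 and SLC38A2 lie near 1 in H441 and below 0 in HT29, where of these only SLC38A2 passed. ODC1 lies near 1 in both, and P4HA1, P4HA2 and NOS3 lie beyond -1 in HT29.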

How the data were processed

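The submitters' processing notes name DESeq2, STAR 2.5.2b, Trimmomatic 0.36 and Subread 1.5.2 and the build GRCh38, without a role for each; which gene models were counted is not stated there. The authors deposited, per line, a table of TPM values with 6 library columns. They also deposited per line a table of their own log2 fold change, p-value and adjusted p-value, with a signal per library that is a read count divided by a size factor, covering 15405 genes in H441 and 16126 in HT29. Whole reads were recovered from that signal, with 100% of values within 0.01 of a whole number; the smallest value in H441 HPLM library 3 was 2 reads.

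Symbols came from the authors' tables for 7 of the 9 genes and otherwise from a gene name table. Positions came from GENCODE release 29. Separate limma 3.58.1 fits (R 4.3.3) were made per line on log2(TPM + 1), keeping genes that reached 1 TPM in 3 or more libraries (2 where a library was left out of a group); tests were two-sided. Fold changes on this scale understate the change of low genes. The script was tested on simulated data. Alternatives were other scalings, a pseudocount of 0.1, no filter, trend and robust options, array weights, a library block, leaving out each library, and edgeR 4.0.16 and DESeq2 1.42.0 on recovered reads. Tests cover the spread between libraries only.

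The genes, lists and tests were chosen with earlier results of these data known. Named genes were all 9 enzymes; in each line, at most 3 genes per list, taken by smallest adjusted p among those averaging 1 TPM or more; pseudogenes reaching 1 TPM; and the 2 genes with the pattern most like each testable enzyme. VTI1B, AC068533.4, AL080251.1, AC145207.4 and MYADML2 were named for their overlap. Some genes that this rule names are not reported here.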

Additional observations from a re-analysis of the deposited data

Results flagged for a closer look

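Responses to HPLM that differed between the lines by an interaction test with all libraries (limma, HT29 minus H441, Benjamini-Hochberg adjustment) were those of ARG2 (-3.37 ± 0.42, adjusted p = 9.94e-04), ALDH18A1 (-0.74 ± 0.15, adjusted p = 0.0109) and PYCR1 (-0.94 ± 0.22, adjusted p = 0.0186). Without HT29 RPMI-1640 library 1 the differences were -3.80 ± 0.18 for ARG2, -1.46 ± 0.14 for ASS1, -0.82 ± 0.12 for ALDH18A1 and -1.10 ± 0.16 for PYCR1 (adjusted p at most 8.20e-04). Among 37 other genes of the pathway, 7 responded more negatively and 0 more positively in HT29 with all libraries. Over all genes tested 11.4% and 3.00% did. Without library 1 the counts were 17 and 6 of 37, where 25.0% and 9.37% of all genes did. The values that follow are those with all libraries. The differences were -1.07 ± 0.19 for IRF1, named after its values were seen (adjusted p = 0.00488), and, among genes chosen by rule, -1.20 ± 0.16 for SLC7A1, -1.39 ± 0.27 for P4HA1, -1.16 ± 0.24 for P4HA2, -1.60 ± 0.33 for HIF1A, -0.998 ± 0.261 for NOS3 and -0.60 ± 0.18 for SLC7A2 (adjusted p at most 0.0485). SLC7A2, a cationic amino acid transporter, stood at no more than 0.105 TPM in H441, so that its difference is that of HT29 alone. The NOS3 and SLC7A2 calls were each lost in 10 of the 12 fits that left out a library.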

How the results depend on the processing

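Deviations of same-numbered libraries from their group means correlated at -0.03 to 0.02 in H441 and -0.10 to 0.17 in HT29. Not every library correlated best with its own number, although in HT29 the libraries numbered 3 had the highest value. Deviations within a group of 3 are tied to one another, so these values cannot tell whether the libraries are paired. With a replicate block 0 of the 9 enzymes fell in H441, where 1284 of all genes did. In HT29 0 fell, where 0 genes of all were called. Between the lines 1 enzyme responded more negatively in HT29, where 1334 of all genes did. Leaving out each library in turn gave 0 to 2 enzymes lowered in H441, and 0 to 5 lowered and 0 to 1 raised in HT29. The 5 lowered and 1 raised came without RPMI-1640 library 1, where 21.4% of all genes fell and 17.8% rose. In HT29, DESeq2 called 3 enzymes lower, and 1926 of all genes, against 585 in the main fit. Without RPMI-1640 library 1, trimmed mean scaling, edgeR and leaving out mitochondrially encoded genes each called 2 enzymes higher. Of all genes these settings called 4256, 4930 and 4637 higher, against 3074 in the main fit without that library. With all libraries, the count of enzymes with a more negative response in HT29 was 1 under those 3 settings. Of all genes 1466, 1426 and 1165 had one, against 2196 in the main fit. Array weights, whose estimation stopped before convergence, called 5 enzymes more negative and 1 more positive. They called 7540 of all genes more negative and 3582 more positive, against 2196 and 577. Without library 1, the count with a more positive response was 1 (trimmed mean scaling, DESeq2) or 2 (without mitochondrially encoded genes, median centring, edgeR). Of all genes these settings called 3708, 3534, 4113, 4112 and 3955 more positive, against 1901 in the main fit without that library.

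Signs turned for ALDH4A1 in H441 (-0.060 with trimmed mean scaling, -0.039 without mitochondrially encoded genes, -0.096 with median centring, -0.041 by edgeR, -0.054 by DESeq2) and for ASL in H441 (-0.024, median centring). On leaving out each library, ASL in HT29 ranged from -0.48 to 0.24, DDIT3 in HT29 from -0.10 to 1.17 and the interaction of ASL from -0.64 to 0.079, each turning sign only without library 1. GLUL in HT29 without library 1 was 0.0055, 0.069, 0.013 and 0.00018 with trimmed mean scaling, without mitochondrially encoded genes, with median centring and by edgeR. The interaction of OAT was 0.0013 without mitochondrially encoded genes, and 0.037 there and 0.0035 by edgeR without library 1; that of ASL was 0.11 with array weights. Over all genes, 1858 fell in H441, against 3704 with trimmed mean scaling, 4171 with median centring and 4193 by edgeR; 414 rose in HT29, against 855, 756 and 834; and 577 responded more positively in HT29, against 1121, 1130 and 911. Of the 14 genes most like an enzyme, 1 stayed among the 2 most like over all 12 libraries. The cause of these changes was not tested.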
